A study of Mus musculus with 6 samples.

Results

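The genes described are 48 mouse genes for chemokines, cytokines, their receptors and the NF-κB pathway, taken by name from a fixed list among the 55401 genes with counts in the RNA-Seq files. The list was chosen with earlier results of these data known. All 48 were found through their Ensembl identifiers. Of these, 43 had enough reads to be tested and 5 did not. The cells were NIH3T3, an immortalized mouse embryonic fibroblast line. They carried either an empty vector (EV) or the TAZ-CAMTA1 fusion (TC), an exogenously expressed oncoprotein that joins the coactivator TAZ to CAMTA1 and acts through the TEAD transcription factors. After 16 h without treatment, the medium was replaced for 48 h with DMSO, the vehicle, or with 10 μM aurintricarboxylic acid (ATA), a small molecule that the study examined for blocking the binding of TAZ to TEAD. There were 2 libraries of EV cells in DMSO (EV), 1 library of TC cells in DMSO (TC) and 3 libraries of TC cells in ATA (TC + ATA). The vector's promoter, and whether the TC cells were 1 clone or a pool, are not given in the sources used here. No library of EV cells in ATA was analysed here, so every ATA value is a value in TC cells. The questions were how TC altered these genes relative to EV, and how ATA altered them in cells that carry TC.

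Chemokines are small secreted proteins that attract leukocytes through G protein-coupled receptors, and fibroblasts are a known source of several of them. Many chemokine and cytokine genes are induced by NF-κB, a family of dimeric transcription factors that the inhibitor IκBα (Nfkbia) holds in the cytoplasm until an upstream signal, such as TNF or IL-1, leads to its degradation. Cytokines of the IL-6 family signal through receptors that share the gp130 chain (Il6st), which activates STAT3 and, as feedback, induces Socs3.

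The promoters are shown because the list is named for its NF-κB response and because the κB site is the DNA letters that NF-κB binds. RefSeq promoters of GRCm38.p6 were at hand for 36 of the 48 members, and the 250 bases before each start were searched on both strands. The κB consensus of 10 bases was present in 11 of these 36 members (30.6%) and in 8.23% of the 27025 genes with a promoter in the table. The other motifs searched were GGAATG for TEAD (9 members, 25.0%, against 14.4% of all genes), TGANTCA for AP-1 (9 members, 25.0%, against 7.82%) and TTCNNNGAA for STAT (7 members, 19.4%, against 8.13%). A match is a run of letters and not evidence of binding. The 4 sequences below belong to members that differed between TC and EV and hold a κB match in this window, with Ccl9, Cxcl1 and Tnfaip3 higher in TC and Il1r1 lower. Each runs 5′ to 3′ on the gene's strand up to the base before its start, and capitals mark the κB match.
Ccl9 (chr11:83578637-83578886, minus strand): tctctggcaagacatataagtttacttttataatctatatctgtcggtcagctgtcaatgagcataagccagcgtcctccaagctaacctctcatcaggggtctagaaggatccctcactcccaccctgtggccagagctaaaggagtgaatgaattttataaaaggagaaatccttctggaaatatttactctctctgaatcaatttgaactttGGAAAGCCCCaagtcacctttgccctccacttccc
Cxcl1 (chr5:90890995-90891244, plus strand): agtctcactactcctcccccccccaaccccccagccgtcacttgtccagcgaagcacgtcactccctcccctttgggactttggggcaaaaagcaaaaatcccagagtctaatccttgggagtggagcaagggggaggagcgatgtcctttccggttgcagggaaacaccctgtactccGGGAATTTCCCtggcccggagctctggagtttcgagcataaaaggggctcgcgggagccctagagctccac
Tnfaip3 (chr10:19015411-19015660, minus strand): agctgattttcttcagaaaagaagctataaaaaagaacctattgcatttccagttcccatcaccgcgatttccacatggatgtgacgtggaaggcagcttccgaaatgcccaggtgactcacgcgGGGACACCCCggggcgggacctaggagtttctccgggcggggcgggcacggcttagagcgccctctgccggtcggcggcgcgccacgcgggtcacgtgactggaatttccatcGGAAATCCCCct
Il1r1 (chr1:40266336-40266585, plus strand): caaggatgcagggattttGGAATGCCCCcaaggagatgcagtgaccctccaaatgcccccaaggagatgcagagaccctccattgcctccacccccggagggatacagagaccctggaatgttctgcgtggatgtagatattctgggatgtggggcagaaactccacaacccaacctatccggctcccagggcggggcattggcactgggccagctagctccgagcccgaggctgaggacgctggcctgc
The Ccl9 match lies 35 to 26 bases before the start. Cxcl1 holds 2 overlapping matches, at 71 to 62 and at 70 to 61 bases. Tnfaip3 holds a match at 125 to 116 bases and another at 12 to 3 bases before 1 of its 2 annotated starts, and none before the other. The Il1r1 match, at 232 to 223 bases before 1 of its 2 annotated starts, overlaps a TEAD match, since its leading letters are also GGAATG. The windows of Cxcl12 and Ptx3, members that were higher with ATA, held no κB match. No promoter was at hand for Cxcl5, which was also higher with ATA, nor for Ccl2, Ccl5 and Ccl7.

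The libraries held 58471484 to 74413193 counts, so counting error was small for most members and the number of libraries limited the precision. Expression is given as CPM, counts per 1000000 counts of the TMM-normalized library total. Because TC has 1 library, the spread between replicates came from EV and TC + ATA, and p-values then measure only the spread between these libraries, which may be technical, since nothing states that they came from separate cultures. The 11 fibroblast markers summed to between 14730 and 19400 CPM per library with none at 0, and relative to EV 2 of them were higher and 5 lower in TC. The 15 leukocyte markers summed to 15.6 to 34.1 CPM, with up to 3 of them at 0, and the 6 endothelial markers to 1.82 to 3.89 CPM with none at 0. In bulk RNA, fewer expressing cells and less RNA per cell cannot be told apart, and this holds for every level below. The use of strand in counting is not stated, and some members share exonic bases with a gene on the opposite strand, which is given where their values appear.

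Relative to EV, 12 of the 43 tested members were higher in TC (27.9%) and 10 were lower (23.3%) at an adjusted p of at most 0.05 from edgeR's quasi-likelihood test. Among all 18539 genes tested, 14.8% were higher and 13.2% were lower. The members therefore changed in both directions, each at a share above that of all genes. As the members were chosen with earlier results of these data known, these shares are a description and not a test. Their median Log2FC was 0.16 and their median absolute Log2FC was 0.59, against −0.03 and 0.39 over all genes. With the study's limit on size as well (an absolute Log2FC of at least 2), Ccl9 and Csf3 were higher (4.65% of the members tested, against 2.36% of all genes) and Cxcl12, Tslp and Ptx3 were lower (6.98%, against 1.27%). Scaling by library totals alone moved the median of all genes from −0.03 to −0.13 and turned the counts of all genes from 2735 higher and 2456 lower into 2072 higher and 3159 lower. By that scaling Ccl7, Nfkb1 and Rela were no longer called higher in TC.

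**Figure D1:**
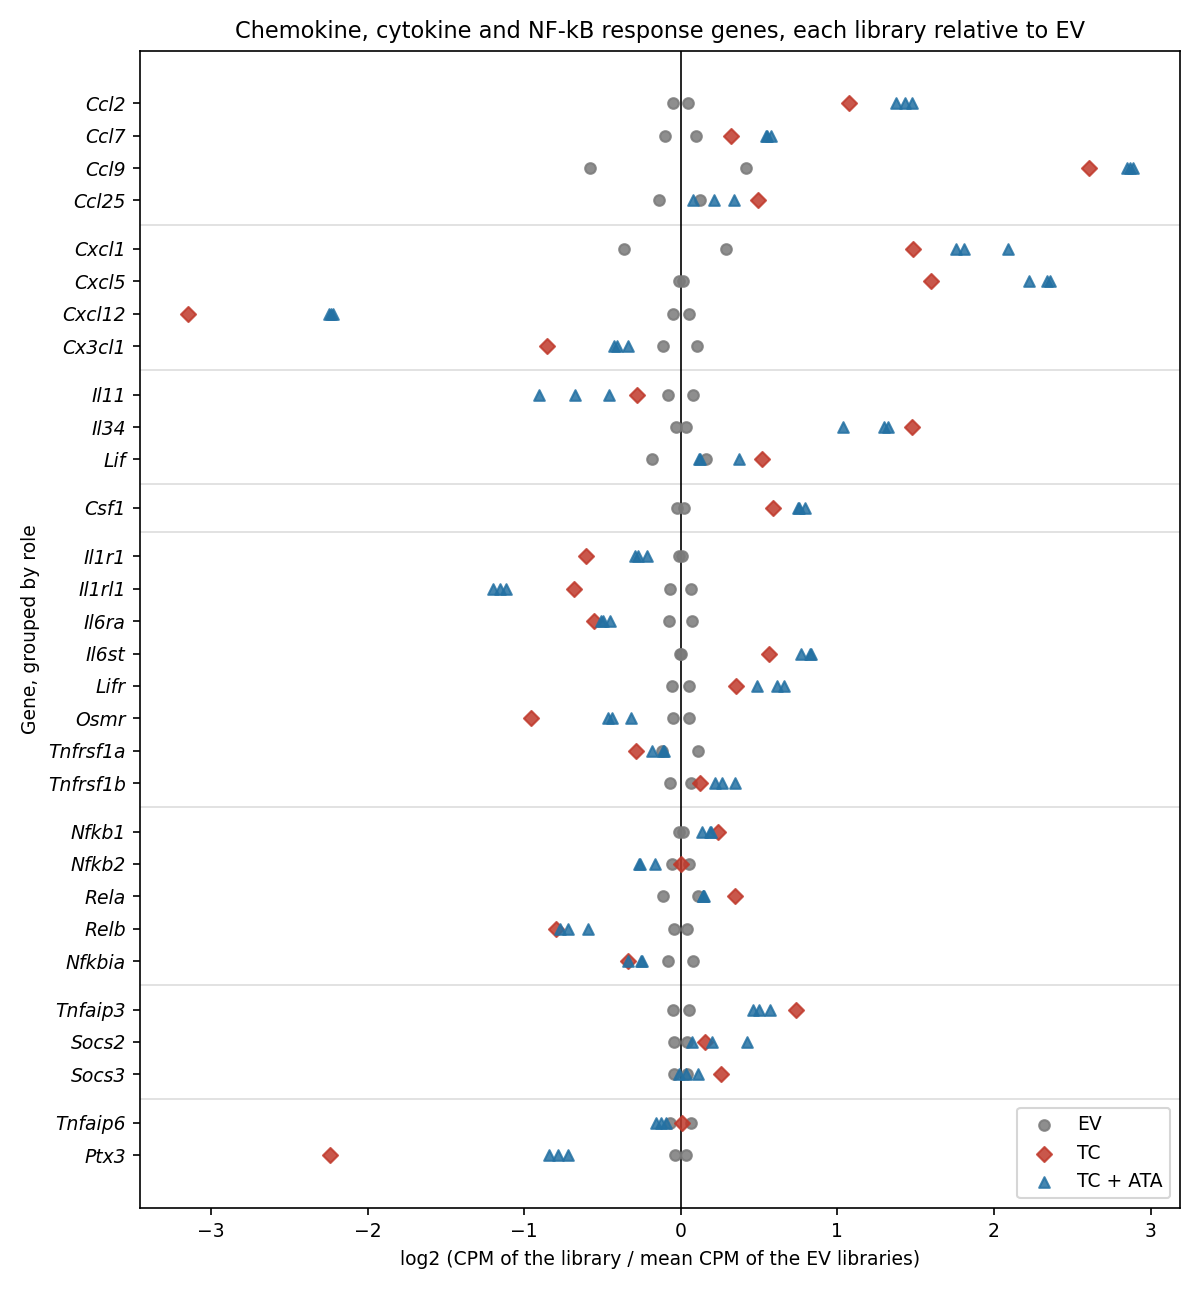
Log2 ratio of each library's CPM to the mean CPM of the EV libraries (horizontal axis) for the members with a mean of at least 1 CPM, grouped by role. Grey points are the 2 EV libraries, the red diamond the TC library and blue triangles the 3 TC + ATA libraries. Cxcl12 and Ptx3 lie far to the left in TC and less so in TC + ATA, and Ccl9, Cxcl5, Cxcl1 and Ccl2 lie to the right in both.

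Ccl2, Ccl7 and Ccl9 were the CC chemokines that were higher in TC, and no CC chemokine was lower. Ccl2 and Ccl7, which recruit monocytes through CCR2, are neighbours on chromosome 11 (82035571 to 82037453 and 82045712 to 82047525, GRCm38). Ccl2 had 27.1 and 25.3 CPM in EV, 55.1 in TC and 72.8, 70.7 and 67.9 in TC + ATA. Each TC-expressing library lay above both EV libraries, with the ATA-treated ones highest. Its Log2FC in TC versus EV was 1.07 (SE 0.08, adjusted p = 2.45e-05, edgeR). Ccl7 moved less, from 26.9 and 23.5 CPM in EV to 31.4 in TC and 36.9, 37.7 and 36.8 in TC + ATA (Log2FC in TC versus EV 0.32, SE 0.10, adjusted p = 0.0452, edgeR). This call was lost without any 1 of the TC + ATA libraries (adjusted p = 0.0921, 0.0985 and 0.0973 without replicates 1, 2 and 3, edgeR). Ccl9, also on chromosome 11 (83572919 to 83578636), encodes a chemokine for myeloid cells. It had 1.78 and 0.892 CPM in EV, 8.13 in TC and 9.77, 9.86 and 9.62 in TC + ATA. The EV libraries differed from each other and still lay far below the other 4 (Log2FC in TC versus EV 2.61, SE 0.28, adjusted p = 0.000151, edgeR). Ccl25, a thymic and gut chemokine with 204 exonic bases shared with a gene on the opposite strand, ranged from 4.17 to 6.44 CPM and was not called. Ccl11 and Ccl8, which lie in the same cluster as Ccl2, were rare, with 8 to 26 and 6 to 34 counts per library.

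Of the 7 CXC and CX3C chemokines, Cxcl1 and Cxcl5 were higher in TC and Cxcl12 and Cx3cl1 were lower. CXCL1 and CXCL5 attract neutrophils through CXCR2, and their genes lie on chromosome 5 (90891241 to 90893115 and 90759360 to 90761624). Cxcl1 had 2.81 and 4.41 CPM in EV, 10.1 in TC and 12.2, 12.7 and 15.3 in TC + ATA (Log2FC in TC versus EV 1.48, SE 0.24, adjusted p = 0.00159, edgeR). Cxcl5 had 3.06 and 3.12 CPM in EV, 9.36 in TC and 15.6, 14.4 and 15.9 in TC + ATA. The 3 groups of Cxcl5 values did not overlap, and TC lay between the others (Log2FC in TC versus EV 1.60, SE 0.13, adjusted p = 2.45e-05, edgeR). Cxcl12, the stromal chemokine that retains haematopoietic cells through CXCR4, lies on chromosome 6 (117168535 to 117181367). It fell from 85.0 and 91.2 CPM in EV to 9.93 in TC, and was at 18.7, 18.6 and 18.9 CPM in TC + ATA. Its Log2FC of −3.15 in TC versus EV (SE 0.10, adjusted p = 3.44e-07, edgeR) was the most negative of the members tested. Cx3cl1, a membrane-bound chemokine that is shed by proteases, had 38.7 and 33.3 CPM in EV, 19.9 in TC and 28.5, 26.8 and 27.2 in TC + ATA (Log2FC in TC versus EV −0.85, SE 0.12, adjusted p = 0.000647, edgeR).

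**Figure D2:**
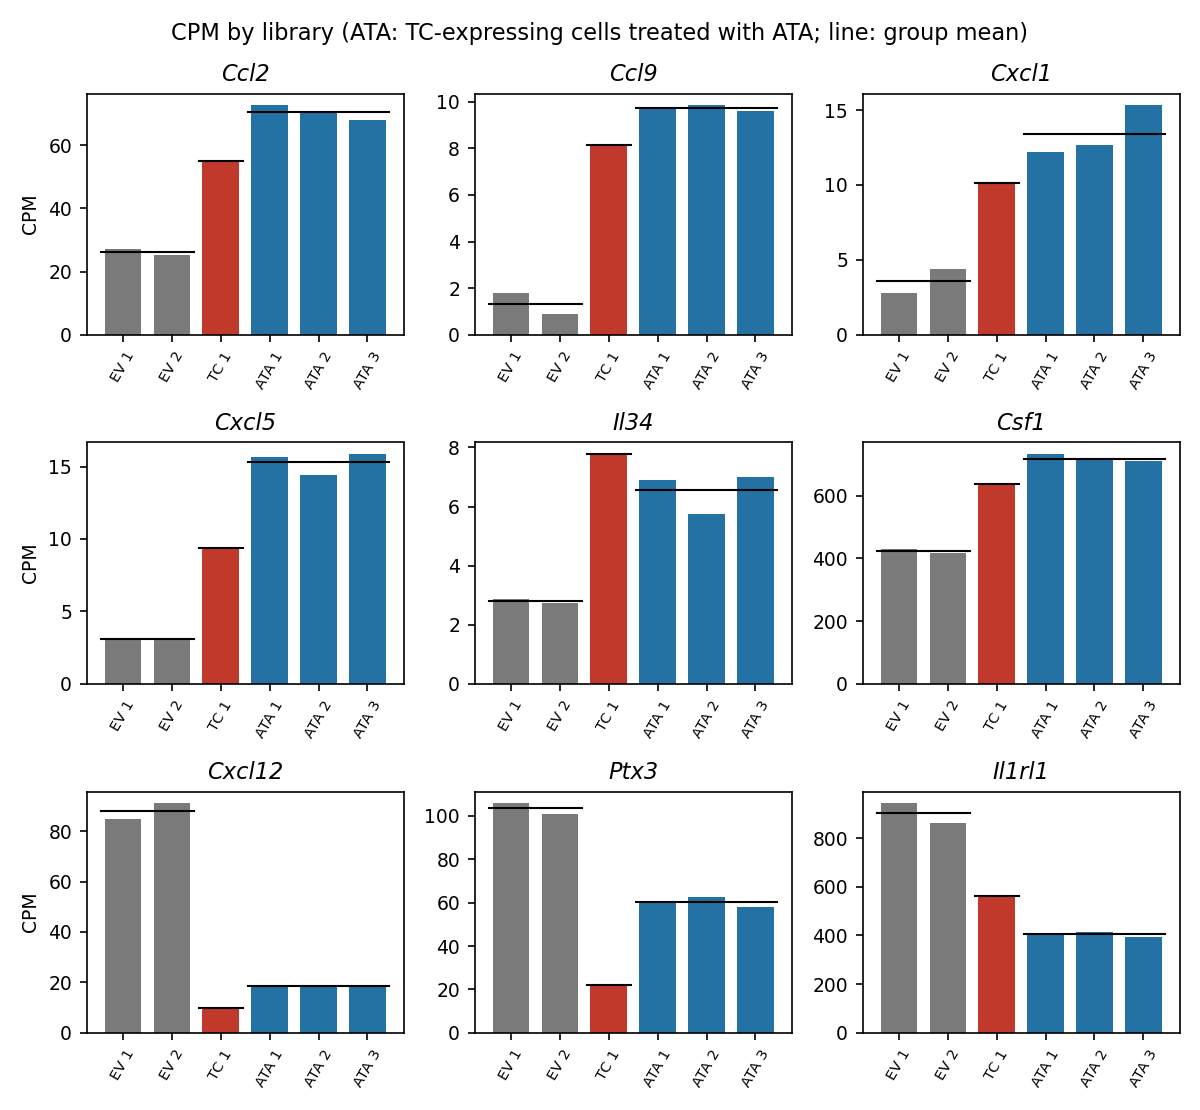
CPM in each of the 6 libraries (bars, each axis starting at 0) for 7 secreted ligands, the pentraxin Ptx3 and the IL-33 receptor Il1rl1. Black lines are group means, and TC has 1 library. Cxcl5 rises from EV to TC to TC + ATA, and Cxcl12 and Ptx3 are lowest in TC.

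Among the interleukins and related ligands, Il34 was higher in TC and Tslp was lower. Il34 encodes a second ligand of the CSF-1 receptor. It had 2.86 and 2.74 CPM in EV, 7.78 in TC and 6.90, 5.74 and 7.02 in TC + ATA (Log2FC in TC versus EV 1.47, SE 0.17, adjusted p = 0.000265, edgeR), and 97 of its 1959 exonic bases are shared with genes on the opposite strand. Csf1, the macrophage colony-stimulating factor, rose from 429 and 417 CPM in EV to 637 in TC and 733, 712 and 709.5 in TC + ATA. Both ligands of the CSF-1 receptor were thus higher in TC (Csf1 Log2FC 0.59, SE 0.09, adjusted p = 0.000915, edgeR), although Csf1 was not called in a fit restricted to EV and TC (adjusted p = 0.0564, edgeR). Csf3, the granulocyte colony-stimulating factor, was rare, with 1 and 7 counts in EV, 43 in TC and 34, 27 and 34 in TC + ATA. Its Log2FC of 3.51 in TC versus EV (SE 0.77, adjusted p = 0.00906, edgeR) was the highest of the members and rested on few EV reads. Tslp, an epithelial and stromal cytokine that acts on dendritic cells, went the other way at similarly low depth, with 54 and 63 counts in EV, 7 in TC and 14, 7 and 22 in TC + ATA (Log2FC in TC versus EV −2.92, SE 0.79, adjusted p = 0.0239, edgeR). The gp130 ligands Lif, Il11 and Il6 were not called in TC versus EV. Lif ranged from 4.64 to 7.55 CPM over the 6 libraries, Il11 from 4.51 to 8.92 CPM and Il6 from 36 to 66 counts.

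The receptors moved in both directions, with Il6st higher in TC and Il1r1, Il1rl1, Il6ra and Osmr lower. Il1rl1 encodes ST2, the receptor of IL-33. It had 944 and 862 CPM in EV, 563.5 in TC and 406, 416 and 393 in TC + ATA, so that the 3 groups did not overlap (Log2FC in TC versus EV −0.68, SE 0.10, adjusted p = 0.000949, edgeR). Restricting the fit to EV and TC raised this adjusted p to 0.0603 (edgeR). Its ligand Il33 had only 6 to 26 counts per library. Il1r1, the signalling receptor of IL-1, had 72.7 and 73.8 CPM in EV, 48.2 in TC and 63.2, 59.9 and 60.5 in TC + ATA (Log2FC in TC versus EV −0.60, SE 0.08, adjusted p = 0.000641, edgeR). Il6st, the shared chain of the IL-6 receptor family, had 181 and 180 CPM in EV, 268 in TC and 322.5, 320 and 308 in TC + ATA (Log2FC in TC versus EV 0.57, SE 0.08, adjusted p = 0.000774, edgeR). Osmr, the oncostatin M receptor chain, had 46.9 and 50.3 CPM in EV, 25.0 in TC and 39.0, 35.2 and 35.9 in TC + ATA (Log2FC in TC versus EV −0.96, SE 0.10, adjusted p = 0.000145, edgeR). Il6ra, the IL-6 binding chain, went from 20.0 and 22.1 CPM in EV to 14.3 in TC and 14.9, 15.4 and 14.8 in TC + ATA (Log2FC in TC versus EV −0.56, SE 0.11, adjusted p = 0.00552, edgeR), with 242 exonic bases shared with a gene on the opposite strand. Lifr, the LIF receptor chain, was not called in TC versus EV, at 7.07 and 7.62 CPM in EV and 9.38 in TC. The TNF receptors Tnfrsf1a (129 to 170 CPM) and Tnfrsf1b (64.9 to 86.5 CPM) were not called in this comparison either.

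**Figure D3:**
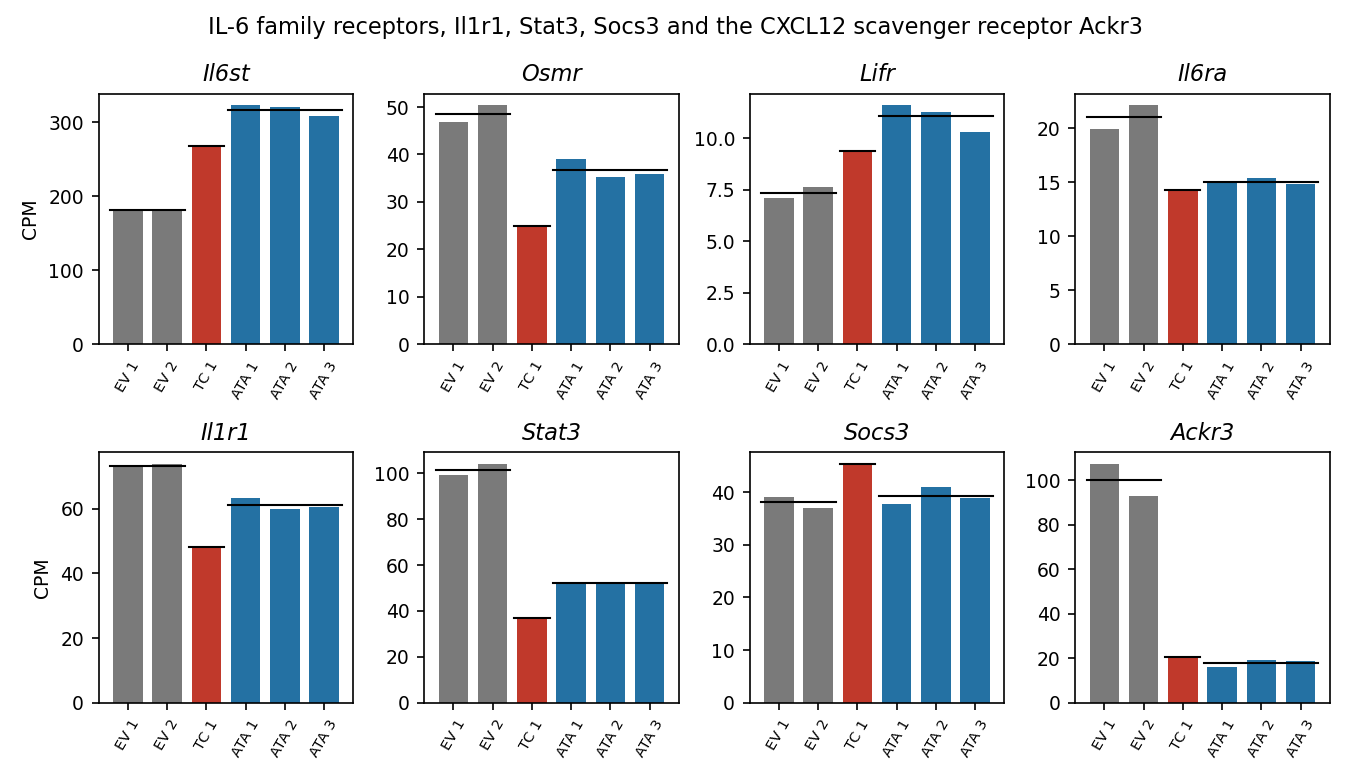
CPM in each of the 6 libraries (bars, each axis starting at 0) for 4 IL-6 family receptor chains, for Il1r1 and Socs3 and for 2 genes outside the list, Stat3 and the CXCL12 scavenger receptor Ackr3. Black lines are group means. Il6st is higher in TC than in EV, Osmr, Il1r1 and Stat3 are lowest in TC, and Ackr3 is low in all 4 TC-expressing libraries.

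The NF-κB subunit and inhibitor genes had Log2FC values between −0.80 and 0.35 in TC versus EV. Relb, a subunit of the non-canonical pathway, changed most, from 19.1 and 20.2 CPM in EV to 11.3 in TC and 11.5, 13.0 and 11.9 in TC + ATA (Log2FC in TC versus EV −0.80, SE 0.12, adjusted p = 0.00133, edgeR). Rela, which encodes the p65 subunit, had 80.0 and 68.4 CPM in EV, 94.3 in TC and 82.0, 82.0 and 81.8 in TC + ATA (Log2FC in TC versus EV 0.35, SE 0.10, adjusted p = 0.0281, edgeR). Nfkb1, the p50 precursor gene, had 102 and 99.97 CPM in EV, 119 in TC and 114.5, 111 and 115 in TC + ATA (Log2FC in TC versus EV 0.24, SE 0.08, adjusted p = 0.0455, edgeR). For Nfkb2, the p52 precursor gene, the values were 117 and 109 CPM in EV, 113 in TC and 101, 94.0 and 94.3 in TC + ATA. The TC value of Nfkb2 lay between the EV values, and 830 of its 4584 exonic bases are shared with genes on the opposite strand. The inhibitor gene Nfkbia had 33.4 and 37.4 CPM in EV, 28.1 in TC and 29.7, 29.8 and 28.0 in TC + ATA (Log2FC in TC versus EV −0.34, SE 0.10, adjusted p = 0.0388, edgeR). Without TC + ATA replicates 1, 2 or 3, in that order, the calls of Rela (adjusted p = 0.0646, 0.0702 and 0.0728, edgeR), Nfkb1 (0.109, 0.121 and 0.104) and Nfkbia (0.0794, 0.0857 and 0.0764) were lost, and that of Relb was kept. Tnfaip3 encodes A20, an NF-κB-induced enzyme that restrains the pathway. It had 7.66 and 8.22 CPM in EV, 13.3 in TC and 10.9, 11.2 and 11.8 in TC + ATA, all 4 above EV (Log2FC in TC versus EV 0.74, SE 0.12, adjusted p = 0.0018, edgeR). Nfkbia and Tnfaip3, both known NF-κB targets with a κB match in the window searched, thus differed in direction. Socs3 had 39.1 and 37.0 CPM in EV, 45.3 in TC and 37.7, 41.0 and 38.9 in TC + ATA and was not called in any comparison, nor was Socs2, at 2.30 to 3.16 CPM.

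Ptx3 encodes pentraxin 3, a soluble pattern recognition protein that fibroblasts make in response to IL-1 and TNF, and lies on chromosome 3 (66219910 to 66225805). It had 106 and 101 CPM in EV, 21.9 in TC and 60.2, 62.7 and 57.9 in TC + ATA. The TC value was the lowest of the 6 and the TC + ATA values lay between TC and EV (Log2FC in TC versus EV −2.24, SE 0.10, adjusted p = 1e-06, edgeR). Tnfaip6, which encodes the hyaluronan-binding protein TSG-6, was even across the libraries, at 10.1 to 11.8 CPM, and was not called in any comparison.

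With ATA, 3 of the 43 members were higher in TC + ATA than in TC (6.98%), namely Ptx3, Cxcl12 and Cxcl5, and none was lower. Over all genes, 0.426% were higher and 0.156% were lower at an adjusted p of at most 0.05 (edgeR). At an unadjusted p under 0.05, 9 members were higher and 3 lower, against 1048 and 733 of all 18539 genes. DESeq2 called 7 members higher and 1 lower, against 287 and 116 genes in all. Ptx3 changed most of these, with a Log2FC of 1.46 (SE 0.09, adjusted p = 0.00126, edgeR), and was called under every alternative tried. Cxcl12 had a Log2FC of 0.92 (SE 0.09, adjusted p = 0.00488, edgeR), and without TC + ATA replicate 3 its adjusted p was 0.0585 (edgeR). Both genes had been lower in TC than in EV, and their TC + ATA values remained below those of EV. Cxcl5, which had been higher in TC, was higher still in TC + ATA, with a Log2FC of 0.71 (SE 0.12, adjusted p = 0.0461, edgeR), and lost its call without TC + ATA replicate 1, 2 or 3 (adjusted p = 0.202, 0.172 and 0.253, edgeR). The TC library enters this comparison and the one with EV in opposite roles, so an error in it would move both.

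Several receptors and chemokines came near the limit for TC + ATA versus TC. Osmr had a Log2FC of 0.55 (SE 0.10, adjusted p = 0.0501, edgeR) and Il1rl1 of −0.48 (SE 0.09, adjusted p = 0.0608, edgeR). Osmr was called higher under 8 alternatives, among them DESeq2 (adjusted p = 0.000274) and upper quartile scaling (adjusted p = 0.0469, edgeR). Il1rl1 was called lower under 6, among them DESeq2 (adjusted p = 4.56e-05), library totals (adjusted p = 0.0204, edgeR) and no filter (adjusted p = 0.00234, edgeR). Il1r1, Ccl2 and Cx3cl1 had Log2FC values of 0.34, 0.35 and 0.46, with adjusted p-values of 0.119, 0.139 and 0.139 (edgeR). The number of calls depended on which libraries informed the spread. Without EV replicate 1 there were 10 members higher and 3 lower, and without EV replicate 2 there were 11 and 3, while over all genes 707 were higher and 762 lower in the former case and 808 and 608 in the latter. Without TC + ATA replicate 1 or 2 there were 2 members higher, without replicate 3 there was 1, and none was lower in these cases. Over all genes, 28 were then higher and 12 lower without replicate 1, 21 and 7 without replicate 2, and 7 and 3 without replicate 3. Every TC + ATA library exceeded the TC library in 22 of the 43 members (51.2%) and in 30.5% of all genes tested. All of them were below it in 12 members (27.9%) and in 32.7% of all genes. The median Log2FC of the members was 0.16, against 0.00 over all genes.

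Compared with EV, 15 members were higher in TC + ATA (34.9%, against 18.0% of all genes) and 12 were lower (27.9%, against 18.6%). By library totals alone the counts of all genes in this comparison went from 3340 higher and 3449 lower to 2711 and 4384. TC + ATA versus EV and TC versus EV share the EV libraries. The chemokines that were higher in TC kept high values, with Log2FC values in TC + ATA versus EV of 1.43 for Ccl2, 0.56 for Ccl7, 2.87 for Ccl9, 1.89 for Cxcl1 and 2.31 for Cxcl5. Csf1 (0.76), Csf3 (3.16), Il34 (1.22), Il6st (0.81) and Tnfaip3 (0.51) were also higher. Cxcl12 (−2.23), Tslp (−1.81), Il1rl1 (−1.16), Ptx3 (−0.78), Relb (−0.69), Il6ra (−0.48), Osmr (−0.41), Cx3cl1 (−0.39) and Il1r1 (−0.26) were lower. The adjusted p-values of these 19 members were at most 0.0176 (edgeR). Some members were called only when the 3 TC + ATA libraries were set against EV, and none of these was called with ATA relative to TC. Lifr, at 11.6, 11.3 and 10.3 CPM in TC + ATA, had a Log2FC of 0.59 (SE 0.10, adjusted p = 0.00177, edgeR). Il11, a gp130 ligand, had 7.98 and 8.92 CPM in EV, 6.97 in TC and 4.51, 5.29 and 6.15 in TC + ATA (Log2FC in TC + ATA versus EV −0.67, SE 0.14, adjusted p = 0.00586, edgeR). Tnfrsf1b (Log2FC 0.28), Ccl8 (1.81), Cxcl14 (1.41) and Nfkb2 (−0.23) passed as well, with adjusted p-values of 0.0123, 0.0375, 0.0378 and 0.0219 (edgeR).

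Several of the calls in TC + ATA versus EV depended on single libraries. Without TC + ATA replicate 1, the adjusted p of Tnfrsf1b was 0.0632 (edgeR). That of Nfkb2 was 0.113 and 0.101 without replicates 2 and 3, and that of Il1r1 was 0.0566 without replicate 2 (edgeR). Ccl8 had 9 and 6 counts in EV, 24 in TC and 20, 34 and 16 in TC + ATA, and its adjusted p was 0.0736 without TC + ATA replicate 1, 0.138 without replicate 2 and 0.116 without EV replicate 2 (edgeR). Cxcl14, with 15 and 15 counts in EV, 19 in TC and 41, 31 and 31 in TC + ATA, lost its call without any 1 of these EV or TC + ATA libraries (adjusted p = 0.0666 to 0.118, edgeR). Nfkb1 (Log2FC 0.17, adjusted p = 0.0431, edgeR) and Nfkbia (−0.28, adjusted p = 0.0178, edgeR) lost theirs without each TC + ATA library, at 0.116 to 0.148 and 0.0549 to 0.0847. Tslp was at 0.0502 without EV replicate 2.

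Ccl20, Csf2, Tnf, Il1rn and Lcn2 had almost no reads. Ccl20 had 0 counts in all 6 libraries, and a count of 0 allows up to 3 counts per library. Csf2 had 2 counts in TC + ATA replicate 1 and 0 elsewhere. Tnf had 5 and 5 counts in EV and 2 in each other library, Il1rn 0 to 4 and Lcn2 0 to 2. These 5 members were below the filter on low counts, and differences in them were not detectable at this depth. Another 9 members passed it with fewer than 70 counts in every library and no call in any comparison, among them Il6, Il33, Ccl11, Cxcl10 (10 to 34 counts, 133 exonic bases shared with a gene on the opposite strand) and the complement gene C3 (23 to 67 counts).

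In Ccl5, the adhesion molecule Icam1 and the acute phase gene Saa3, TC + ATA replicate 1 stood below the other TC + ATA libraries. Replicate 1 had the smallest library total, 58471484 counts, and the counts below are not scaled for it. The other rare members differed. In CPM, replicate 1 was the lowest TC + ATA library for Il6, Cxcl10 and C3 and the highest for Il33, Cxcl14, Ccl11 and Csf3. For Ccl8, Tslp and Cxcl16 it lay between the others. Ccl5 had 8 and 12 counts in EV, 18 in TC and 4, 26 and 18 in TC + ATA. Icam1 had 7 and 10 counts in EV, 10 in TC and 4, 27 and 23 in TC + ATA, and 511 of its exonic bases are shared with a gene on the opposite strand. Saa3 had 3 and 4 counts in EV, 2 in TC and 2, 16 and 9 in TC + ATA. Cxcl16 had 4 counts in TC + ATA replicates 1 and 2 and 25 in replicate 3, with 552 exonic bases shared with a gene on the opposite strand. In CPM, the same replicate 1 was the lowest of the 6 libraries for 3 of the 15 leukocyte markers, Ptprc, Laptm5 and Cd3e, whose values were looked at after those of the members. It was the lowest of the TC + ATA libraries for 7 of the 15 and not for the other 8, among them Cd68, Aif1, Lyz2 and Tyrobp. Ptprc, which encodes the pan-leukocyte antigen CD45, had 3.17 and 2.87 CPM in EV, 2.23 in TC and 0.282, 5.33 and 4.21 in TC + ATA. The leukocyte list as a whole summed to 16.8 and 15.6 CPM in EV, 26.3 in TC and 25.3, 34.1 and 33.9 in TC + ATA, and 2 of its 9 tested genes, Lyz2 and Cd14, were higher in TC than in EV. Lyz2 had 0.495 and 0.249 CPM in EV, 5.66 in TC and 8.94, 9.59 and 8.40 in TC + ATA. Of the macrophage markers, Adgre1 and Itgam had 0 to 6 and 0 to 2 counts per library. Cd68 and Cd14 had 128 to 263 and 474 to 963 counts. The part of these markers in the values of the rare members was not tested. When TC + ATA replicate 1 was left out, no rare member gained a call, and Ccl8 and Cxcl14 lost theirs against EV. That fit leaves fewer residual degrees of freedom and called fewer genes in all. It therefore cannot decide whether replicate 1 hid a call.

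**Figure D4:**
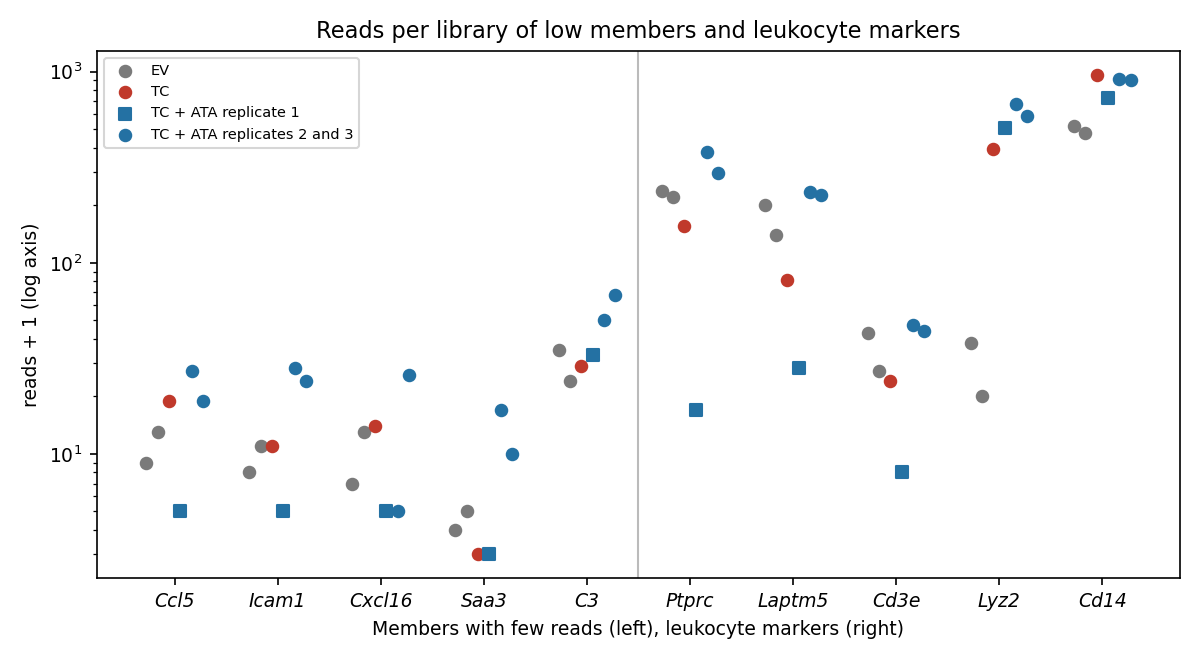
Reads per library plus 1 (log axis) for 5 members with few reads (left) and 5 leukocyte markers (right). Grey points are EV, red TC, and blue TC + ATA, with replicate 1 as a square. In reads, replicate 1 is the lowest TC + ATA library for every gene shown except Cxcl16, where it ties with replicate 2. It also has the smallest library total, and reads are not scaled for this.

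Levels can be compared between genes only per length of transcript, as CPM per kilobase of exon. On that scale the highest members in EV were Il1rl1 (131), Csf1 (80.1), Tnfrsf1a (60.8), Ptx3 (38.6) and Ccl7 (31.5). In TC they were Csf1 (121), Il1rl1 (81.7), Tnfrsf1a (49.8), Ccl2 (48.4) and Ccl7 (39.3). In TC + ATA the order was Csf1 (136), Ccl2 (61.9), Il1rl1 (58.7), Tnfrsf1a (55.5) and Ccl7 (46.3). Csf1 thus took the place of Il1rl1 at the top in the TC-expressing libraries, and Ccl2 rose past Ptx3. These orders are a description, without a test between genes.

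Other genes of the same pathways were taken from lists, and up to 3 called genes of each list are named. Over all genes tested, 14.8% were higher and 13.2% lower in TC versus EV, and 0.426% were higher and 0.156% lower with ATA. The counts below are to be read beside these shares, as a description and not a test. Of 34 further NF-κB, TNF and IL-1 signalling genes, 33 were tested, with 3 higher and 10 lower in TC and none called with ATA. Bcl3, an atypical IκB protein, and Traf5, a TNF receptor adaptor, were lower (Log2FC −1.35 and −1.30). Cyld, a deubiquitinase that restrains NF-κB, was higher (1.13), as were Nfkbib and Traf3 (0.64 and 0.43). The latter 2 fall outside the naming rule, as do the other lower genes. These were Birc3 (−0.94), Nfkbiz (−0.89), Il1rap (−0.66), Map3k14 (−0.61), Myd88 (−0.55), Birc2 (−0.54), Tnip1 (−0.42) and Irak1 (−0.42). Of 22 further NF-κB inducible genes, 17 were tested, with 7 higher and 2 lower in TC and none called with ATA. Tnfaip2 rose (Log2FC 1.85) and Tlr2, which senses bacterial lipoproteins, fell (−2.15), as did the cytokine Il15 (−1.73), named after its values were seen. Ier3 (1.37), Bcl2l1 (1.31), Cd44 (1.17), Relt (0.84) and Vcam1 (0.28), also named after their values were seen, were higher. Selp, the adhesion molecule P-selectin, had 2 and 0 counts in EV, 257 in TC and 232, 275 and 340 in TC + ATA, so that nearly all of its reads came from TC-expressing cells. The median Log2FC of these lists in TC versus EV was −0.05 and 0.28.

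Of 29 further IL-6 family, JAK-STAT and SOCS genes, 27 were tested, with 8 higher and 8 lower in TC and 1 higher with ATA. The shares of all genes tested were 14.8% higher and 13.2% lower in TC, and 0.426% higher with ATA. Stat3, the main transducer of gp130 signals, had 99.2 and 104 CPM in EV, 37.0 in TC and 52.4, 52.6 and 51.8 in TC + ATA. It was lower in TC than in EV (Log2FC −1.46, SE 0.08, adjusted p = 4.05e-06, edgeR) and higher in TC + ATA than in TC (0.50, SE 0.08, adjusted p = 0.0303, edgeR). The Stat3 call with ATA was lost without TC + ATA replicates 1, 2 and 3 (adjusted p = 0.166, 0.193 and 0.192, edgeR). Pias3, an inhibitor of STAT3, was lower in TC (Log2FC −0.72), and Clcf1, a gp130 ligand, was higher (0.83), a call that was lost when scaling by library totals alone (adjusted p = 0.059, edgeR).

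Few other chemokines and chemokine receptors had reads. For the counts that follow, 14.8% of all genes tested were higher and 13.2% lower in TC versus EV. Of 21 chemokine genes outside the list, 4 were tested and 1 was higher in TC, namely Ccl6 (6 and 6 counts in EV, 27 in TC and 14, 24 and 30 in TC + ATA), and of 23 receptors and decoys 9 were tested and 1 was lower. The latter was Ackr3, which scavenges CXCL12, and it fell with its ligand, from 107 and 92.9 CPM in EV to 20.6 in TC and 16.1, 19.0 and 18.9 in TC + ATA (Log2FC in TC versus EV −2.28, SE 0.14, adjusted p = 5.84e-06, edgeR). In contrast to Cxcl12, Ackr3 had a Log2FC of −0.20 in TC + ATA versus TC (adjusted p = 0.672, edgeR). The signalling receptor Cxcr4, named after its values were seen, had 5 to 21 counts per library. Of 9 receptor genes for colony-stimulating factors, TSLP, IL-33 and IL-34, 4 were tested and Sdc1 was lower in TC (Log2FC −0.31, adjusted p = 0.0402, edgeR), a call lost without TC + ATA replicate 1, 2 or 3 (adjusted p = 0.0882, 0.0938 and 0.0898, edgeR). Of 20 complement and acute phase genes, 12 were tested, with 4 higher and 3 lower in TC. The complement regulators Cd59a and Cd55 changed in opposite directions (Log2FC 2.97 and −2.57), and C1s1, a complement protease, was lower (−2.12). The others, named after their values were seen, were Serping1 (2.04), C1ra (1.56) and C1rb (1.58), which were higher, and C1s2 (−1.48), which was lower, and reads may be split between the near-identical copies C1ra and C1rb, and C1s1 and C1s2. None of the chemokine, receptor or complement genes outside the list was called in TC + ATA versus TC.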

How the data were processed

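Poly(A) RNA of 6 NIH3T3 libraries was analysed, grouped by the sample labels (2 EV, 1 TC, 3 TC + ATA). The authors aligned paired-end reads to GRCm38.p6 (mm10) with HISAT2 (version 2.2.1 in the submitters' processing notes) and assigned them to genes with featureCounts. Raw counts per gene, not normalized, were deposited. The annotation release and the use of strand are not given in the sources used here, so reads of overlapping genes may be shared.

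Symbols, positions and exon lengths came from GENCODE M21 (55141 of 55401 identifiers matched). Counts were fitted with edgeR 4.0.16 in R 4.3.3 (TMM, filterByExpr, quasi-likelihood test, all 6 libraries in 1 fit with 3 residual degrees of freedom, Benjamini-Hochberg adjustment over 18539 genes), which was tested on simulated data. SE is the standard error of the Log2FC. DESeq2 1.42.0, other scalings and filters, fewer libraries and a replicate block were the alternatives.

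Members and lists were chosen with earlier results of these data known. Named with library values were the members called in TC + ATA versus TC, those called in TC versus EV with an absolute Log2FC of at least 1 and a mean of at least 1 CPM, the NF-κB subunits, Nfkbia, Tnfaip3 and Socs3, and the members below the filter, as counts. Other members were to be given as ranges, and the library values of those that were called or rare were added after their values were seen. Of each other list, at most the 3 largest called changes with a mean of at least 1 CPM were named, and other genes were named after their values were seen. A few genes of these lists are not reported here. Promoters are from RefSeq. They were printed for at most 4 called members with a κB match, the largest changes in each direction of TC + ATA versus TC and then of TC versus EV. Library totals ran from 58471484 to 74413193 counts, and floors cover counting error only.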

Additional observations from a re-analysis of the deposited data

How the results depend on the processing

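Only 1 TC library was available, so the TC level has no replicate check, and with 3 residual degrees of freedom the calls near the limit moved with the libraries in the fit. Fits without an EV or TC + ATA library assume that a lone library varies like the others. The number of members higher in TC + ATA than in TC was 3, and it was 7 with DESeq2, 11 with only the groups compared, 5 with no filter and 1 with the replicate block. Leaving out each library in turn gave 1 to 11. The number lower was 0, and it was 1 with DESeq2, library totals or no filter, 3 with only the groups compared, and 0 to 3 with each library left out. Over all genes, higher and lower calls in this comparison were 79 and 29, against 287 and 116 with DESeq2, 795 and 633 with only the groups compared, 242 and 108 with no filter, 32 and 8 with the replicate block, and 7 to 808 and 3 to 762 with each library left out. Ptx3 kept its call in all of these. Cxcl5 also lost its call with library totals (adjusted p = 0.07, edgeR), upper quartile scaling (0.0504) and the filter at 5 CPM (0.0537). With both limits, 5 members passed in TC versus EV and 3 with the filter at 5 CPM, which removed Csf3 and Tslp. The other counts of members stayed within 1.5 times under every alternative, and of 929 single values none reversed, 75 lost and 27 gained a call. The cause was not tested.

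The labels give replicate numbers 1 and 2 to both EV and TC + ATA. Deviations of same-numbered libraries from their group means had correlations of −0.029 and −0.086 over 18539 genes. With 2 EV libraries, the EV deviations mirror each other, so these correlations cannot decide whether same-numbered libraries were paired. The replicate block adds terms to the fit and so leaves fewer residual degrees of freedom than the 3 of the main fit. With it, 17 of 22 calls among members were kept in TC versus EV, 1 of 3 in TC + ATA versus TC and 20 of 27 in TC + ATA versus EV. Over all genes, 1717 were higher and 1467 lower in TC versus EV, and 2450 and 2195 in TC + ATA versus EV. The cause was not tested.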
